A study of Mus musculus with 45 samples.

Results

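The genes described here are 10 surface molecules with which microglia, the resident macrophages of the brain, can stimulate or restrain T cells. They were taken by name, as a set chosen with earlier results of these data known: Cd40, Cd80, Cd86, Cd274, Pdcd1lg2, Icosl, Tnfsf9, Cd83, Vsir and Havcr2. All 10 were among the 42929 gene identifiers shared by the 3 count tables of the series. The series held 45 RNA-seq libraries from C57BL/6 mice, and the titles of all adult groups carry the genotype WT. Microglia were sorted as CD11b high and CD45 intermediate cells from brain slices of neonatal mice after 2 weeks in culture, and the slices had received medium alone (9 libraries), TNF at 50 ng/mL (11) or GM-CSF, written GMCSF in the labels, at 20 ng/mL (9) for 24 h. The same gate was used on brains of mice aged 10 to 15 weeks, 24 h after an injection of PBS (4 libraries) or of 1 mg/kg lipopolysaccharide, LPS (4). Brain tissue, unsorted, came from 4 mice of that age that were not injected and from 4 mice 24 h after the same LPS dose. A slice library pooled several slices, and the labels do not tie replicate numbers to animals, so the p-values below measure the spread between these libraries.

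A T cell that recognises its antigen needs a further signal from the cell that presents it. Ligands of the B7 family and of the TNF superfamily deliver that signal, and related molecules called checkpoints weaken it or turn it off. Microglia carry many of these molecules, and their levels are known to shift when the cells meet cytokines or bacterial products. Cd40 encodes a TNF-receptor family member that T cells engage through CD40 ligand. Cd80 and Cd86 encode the B7 ligands that bind both CD28, which stimulates, and CTLA-4, which inhibits. Icosl encodes the ligand of ICOS, and Tnfsf9 encodes 4-1BBL, the ligand of the costimulatory receptor 4-1BB. Cd83 encodes a membrane glycoprotein known as a marker of mature dendritic cells and also of microglia. Cd274 and Pdcd1lg2 encode PD-L1 and PD-L2, the ligands of the inhibitory receptor PD-1. Vsir encodes VISTA, an inhibitory B7-family molecule, and Havcr2 encodes TIM-3, an inhibitory receptor found on T cells and on myeloid cells.

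Positions are given in GRCm38 with GENCODE M21. Cd274 (chr19:29367455-29388095) and Pdcd1lg2 (chr19:29410919-29471161) were neighbours on the plus strand of chromosome 19. Cd80 (chr16:38455561-38496335, plus strand) and Cd86 (chr16:36603869-36666081, minus strand) shared chromosome 16, and Icosl (chr10:78069302-78083913) and Vsir (chr10:60346851-60372684) shared chromosome 10, both on the plus strand. Cd40 lay at chr2:165055627-165072948, Havcr2 at chr11:46454935-46481255, Cd83 at chr13:43784775-43803132 and Tnfsf9 at chr17:57105325-57107757, all on the plus strand. Vsir lies inside Cdh23, which is annotated on the opposite strand, and Cd274, Pdcd1lg2 and Tnfsf9 each overlap a non-coding gene. Whether reads were assigned by strand was not given in the sources used here, so reads of these 4 members and of their overlapping genes cannot be told apart with certainty. In the slice table Cdh23 held 699 counts in all and the antisense gene over Cd274 held 84, far below Vsir and Cd274. In the adult libraries Cdh23 held 9006 counts, against 130617 for Vsir with PBS and 76808 with LPS. In the brain libraries it held 181, against 1114 for Vsir without treatment and 813 with LPS. Gm11110, which overlaps Tnfsf9, held 1452 counts over the 29 slice libraries, against 710 for Tnfsf9 in the medium group, 4985 in the TNF group and 998 in the GM-CSF group. For Pdcd1lg2 the overlapping antisense gene A930007I19Rik held 1701 counts in the slice libraries together, more than Pdcd1lg2 itself. It held 226 counts in the adult libraries and 56 in the brain libraries, again more than Pdcd1lg2.

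The sequence before the RefSeq start is printed for the 5 members whose window reached before the GENCODE gene. These are Cd274 and Pdcd1lg2, neighbouring PD-1 ligands, Icosl, a ligand higher after TNF, and Vsir and Havcr2, inhibitory molecules lower after TNF. The sequences come from RefSeq windows of GRCm38.p6, which matched 6 of the 10 members. The window of Cd80 lies inside its GENCODE gene and is not printed. The RefSeq start of Icosl lies inside the GENCODE gene, so the last 66 bases of its window are not shown. All are written from the plus strand, on which these genes lie. Capitals mark a match to one of 4 motifs, each searched on both strands within the 250 bases before the RefSeq start: the kappaB motif of NF-kappaB, the ISRE (GAAANNGAAA), the GAS (TTCNNNGAA) and the AP-1 motif (TGANTCA).
Cd274, chr19:29367188-29367437: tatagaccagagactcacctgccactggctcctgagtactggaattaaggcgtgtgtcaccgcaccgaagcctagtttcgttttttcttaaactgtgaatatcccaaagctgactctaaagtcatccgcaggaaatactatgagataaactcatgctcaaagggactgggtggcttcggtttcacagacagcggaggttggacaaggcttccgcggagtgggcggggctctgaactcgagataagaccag
Pdcd1lg2, chr19:29410669-29410918: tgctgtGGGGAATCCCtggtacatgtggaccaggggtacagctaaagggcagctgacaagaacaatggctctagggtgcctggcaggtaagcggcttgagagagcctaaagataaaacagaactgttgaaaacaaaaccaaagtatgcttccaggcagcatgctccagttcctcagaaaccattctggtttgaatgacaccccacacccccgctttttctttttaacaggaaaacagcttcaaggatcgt
Icosl, chr10:78069118-78069301: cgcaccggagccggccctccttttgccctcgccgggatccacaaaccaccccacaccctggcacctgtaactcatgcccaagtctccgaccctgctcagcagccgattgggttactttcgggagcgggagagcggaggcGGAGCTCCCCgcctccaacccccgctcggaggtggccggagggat
Vsir, chr10:60346601-60346850: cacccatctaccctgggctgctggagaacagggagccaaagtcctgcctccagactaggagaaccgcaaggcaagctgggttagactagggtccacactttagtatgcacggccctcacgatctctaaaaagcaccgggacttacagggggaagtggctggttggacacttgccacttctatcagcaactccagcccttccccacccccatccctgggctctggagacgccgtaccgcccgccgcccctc
Havcr2, chr11:46454681-46454930: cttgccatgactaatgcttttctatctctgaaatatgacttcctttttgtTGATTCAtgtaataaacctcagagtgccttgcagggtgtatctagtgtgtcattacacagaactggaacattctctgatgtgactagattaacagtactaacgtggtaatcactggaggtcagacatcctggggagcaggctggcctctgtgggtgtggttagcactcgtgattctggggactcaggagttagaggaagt
Pdcd1lg2 held 1 kappaB match, 244 to 235 bases before its RefSeq start, and Icosl held 1 on the minus strand, 111 to 102 bases before its RefSeq start and 45 to 36 bases before the GENCODE start at which the printed sequence ends. Havcr2 held 1 AP-1 match, 200 to 194 bases before its RefSeq start. The Cd80 window, not printed, held another, 42 to 36 bases before its RefSeq start and so inside the GENCODE gene. The windows of Cd274 and Vsir held none of the 4. Among all 32841 windows of that length, 7.25% held a kappaB match, 2.98% an ISRE, 7.02% a GAS and 6.75% an AP-1 match. A match is a string of letters and was not tested as a binding site. Of the printed stretches that of Icosl was the richest in G and C, at 67.9% with 15 CpG, and that of Havcr2 the poorest, at 44.8% with 2.

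Library totals ran from 5973364 to 9165485 counts for slice microglia, from 11391564 to 14216005 for adult microglia and from 8199863 to 10368578 for brain tissue. Levels are given as CPM, that is counts relative to the TMM-adjusted total of each library, and the 3 tables were normalised separately, so levels set across tables are only side by side. All 7 microglial markers were present in every group of sorted cells, and their summed level ran from 16507 to 23654 CPM with medium, from 9025 to 11948 with TNF, from 11545 to 13336 with GM-CSF, from 51182 to 57299 with PBS and from 35883 to 40151 with LPS. Of these 7 markers, 5 were lower with TNF, 5 with GM-CSF and 2 with LPS. The markers of dendritic cells, which carry many of the same ligands, summed to 6.31 to 18.1 CPM with medium, 7.62 to 20.5 with TNF and 2.82 to 21.2 with GM-CSF, and Cd209a among them was at 0 in every slice group. The CD3 chains and Cd8a, which define T cells, were at or near 0 in the slice libraries, where Cd4 made up most of the T-cell sum. Border-macrophage markers were higher in the slices than in adult microglia. They summed to 290 to 698 CPM with medium, 305 to 542 with TNF and 301 to 862 with GM-CSF, against 10.1 to 15.6 with PBS. The part of such cells in the slice levels of the members was not tested.

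With medium alone, Cd83 and Vsir were the most abundant members per kilobase of exon and Pdcd1lg2 the least. Per kilobase, the level of Cd83 was 249 ± 32.5 CPM (SD, n = 9) and that of Vsir 164 ± 27.0, and their libraries overlapped. Havcr2 followed at 101 ± 10.9 CPM per kilobase and Cd86 at 69.5 ± 9.33, each clear of its neighbours in this order. Icosl at 20.0 ± 2.38, Cd274 at 14.1 ± 4.98 and Tnfsf9 at 8.05 ± 2.37 CPM per kilobase overlapped in sequence. Cd40 at 2.03 ± 0.883 and Cd80 at 1.47 ± 0.791 overlapped as well, while Pdcd1lg2 was at 0 in 8 of 9 libraries. The B7 pair was therefore unequal before any treatment, with Cd86 far above Cd80.

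In adult microglia from mice given PBS the order differed in its first places. Vsir led at 481 ± 8.24 CPM per kilobase (SD, n = 4), and Cd86 at 123 ± 3.70 and Cd83 at 94.4 ± 8.25 followed, with no overlap between these neighbours. Havcr2 stood at 43.6 ± 2.82 and Icosl at 32.0 ± 2.46 CPM per kilobase. Cd80 at 3.14, Cd274 at 2.85 and Tnfsf9 at 2.03 CPM per kilobase overlapped, Cd40 was at 0.310 and Pdcd1lg2 had no count in any of the 4 libraries. In untreated brain tissue Cd83 at 7.23 ± 0.909 and Vsir at 5.63 ± 0.313 CPM per kilobase were the only members above 2. From Icosl at 1.06 down to Pdcd1lg2 at 0.0642 CPM per kilobase each of the other members overlapped with the next. In bulk libraries, fewer cells of a type and less RNA per cell cannot be told apart.

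**Figure D1:**
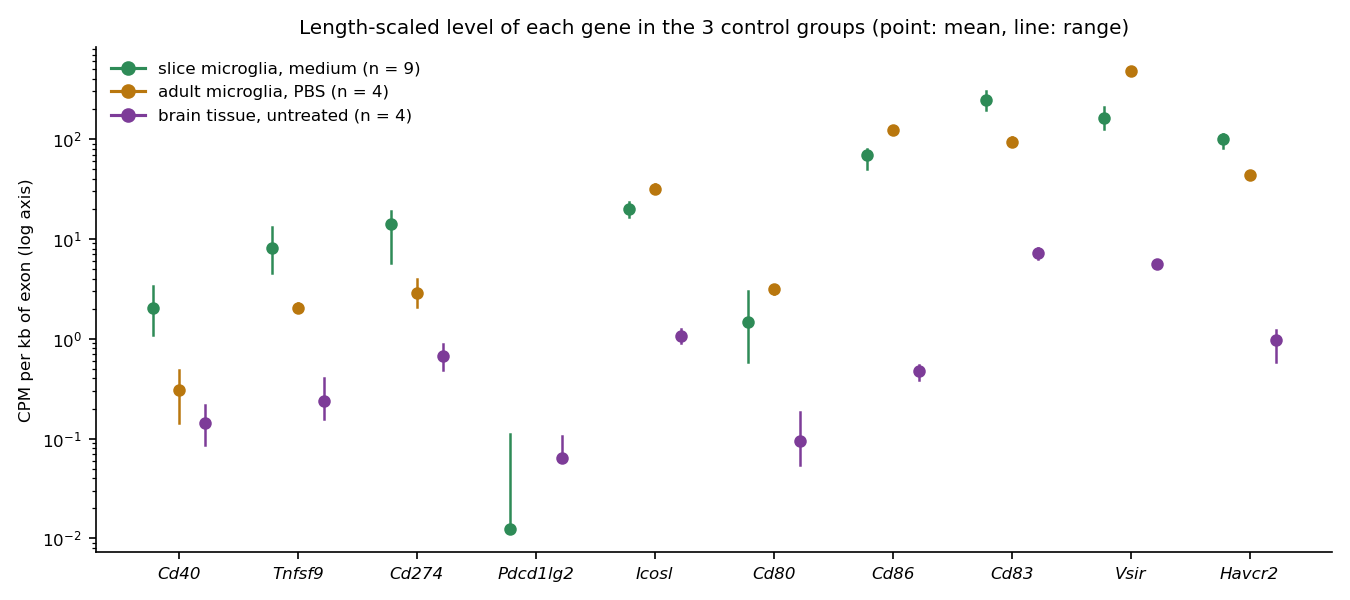
Level of each member in the 3 control groups, as CPM per kilobase of exon on a log axis, with a point at the mean and a line over the range of the libraries. Cd83 and Vsir lead with medium and Vsir with PBS, and values of Pdcd1lg2 at 0 cannot be drawn on this axis.

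The first question was what TNF, a cytokine of inflammation, does to these molecules in slice microglia. Among the 9 members with enough counts to test, 4 rose (Cd40, Tnfsf9, Cd274 and Icosl) and 3 fell (Vsir, Havcr2 and Cd83). A member is said to rise or fall where edgeR's quasi-likelihood test gave a Benjamini-Hochberg adjusted p under 0.05 over all genes tested and the fold change was over 1.5. Across all 11313 genes tested, 9.1% were called higher and 11.7% lower. The median log2 fold change of the 9 members was 0.10, against -0.03 over all genes. The groups did not overlap in 7 of the 9, and in 10.3% of all genes tested.

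Cd40, the receptor for CD40 ligand, ran from 3.75 CPM through a median of 6.19 to 11.6 with medium. With TNF it ran from 46.0 through 95.8 to 121 CPM. The lowest TNF library was thus above the highest medium library. Its mean was 6.91 ± 3.01 CPM (SD) in the 9 medium libraries and 91.9 ± 24.3 in the 11 TNF libraries. This was a 13.3-fold rise, 3.74 on the log2 scale (SE 0.27, edgeR adjusted p = 9.75e-14). Per kilobase, Cd40 moved from 2.03 to 27.0 CPM, where its libraries overlapped with those of Icosl.

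Tnfsf9, the ligand of 4-1BB, had 5.83, 10.0 and 16.9 CPM as its lowest, median and highest values with medium. The same 3 values were 47.7, 64.4 and 81.6 CPM with TNF, again without overlap. The difference was 2.64 on the log2 scale (SE 0.14, edgeR adjusted p = 3.09e-17), or 6.24-fold. Tnfrsf9, the gene of its receptor 4-1BB, rose as well, from a mean of 67.0 CPM to 341 (log2 fold change 2.35, SE 0.22, adjusted p = 2.12e-10). Ligand and receptor transcripts were thus both higher in the same sorted population.

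Icosl, the ICOS ligand, ran from 77.4 through 98.9 to 108 CPM with medium and from 114 through 144 to 176 with TNF. The groups did not overlap, and the change was the smallest of the 4 rises, 1.57-fold (log2 0.65, SE 0.09, edgeR adjusted p = 2.54e-07). It sat close to the fold limit: when libraries were scaled by their total counts in place of TMM the log2 value was 0.58 and Icosl was no longer called. Its printed upstream stretch held a kappaB match, as did 7.25% of all windows searched, while that of Cd274 held none. Cd40 and Tnfsf9 had no window. A part of the match in the change of Icosl was not tested.

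Both B7 ligands of CD28 missed the call. Cd86 had a lowest, median and highest level of 182, 267 and 289.9 CPM with medium and of 231, 277 and 311 with TNF. The groups overlapped, with 3 TNF libraries above all medium libraries, and the log2 difference was 0.10 (SE 0.08, edgeR adjusted p = 0.345). Cd80 ran from 2.19 through 4.95 to 11.1 CPM with medium and from 2.12 through 4.70 to 7.72 with TNF, with a log2 difference of -0.16 (SE 0.34, edgeR adjusted p = 0.755). The standard error of Cd80 was over 4 times that of Cd86, so a moderate change of Cd80 could have been missed.

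Cd274, the PD-L1 gene, had a lowest, median and highest level of 21.0, 53.5 and 68.6 CPM with medium. With TNF these values were 165, 213 and 328 CPM, all far above the medium libraries. The mean went from 51.3 ± 18.0 CPM to 217 ± 44.4, a 4.23-fold rise (log2 2.08, SE 0.17, edgeR adjusted p = 6.08e-12). An inhibitory ligand therefore rose beside the stimulatory Cd40, Tnfsf9 and Icosl.

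The other 3 members with a call went down. Vsir ran from 626 through 818 to 1057 CPM with medium and from 197 through 288 to 377 with TNF. No TNF library reached the lowest medium library, and Vsir fell by 1.54 on the log2 scale (SE 0.09, edgeR adjusted p = 6.48e-16), a 2.91-fold fall. Havcr2 ran from 219.9 through 288 to 306 CPM with medium and from 82.6 through 139 to 199 with TNF, and fell by 1.02 (SE 0.12, edgeR adjusted p = 5.25e-09). Cd83 ran from 508 through 642 to 784 CPM with medium and from 288 through 362 to 449.6 with TNF, and fell by 0.83 (SE 0.09, edgeR adjusted p = 1.84e-09). These 3 were the 3 most abundant members per kilobase with medium, and their groups did not overlap either. The summed level of the microglial markers was also lower in the TNF libraries, as given above, and of the 5 border-macrophage markers tested 2 were lower. Among other cell types 1 marker each of neutrophils, endothelial cells, oligodendrocytes and T cells was higher and 1 each of T cells and B cells lower, and the part of all these in these falls was not tested.

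After TNF the members lay closer together. Per kilobase, Cd83 still led at 140.3 ± 24.0 CPM and was clear of the next. Below it Cd86 (74.2), Cd274 (60.0), Vsir (56.3), Tnfsf9 (50.5), Havcr2 (49.7), Icosl (31.3) and Cd40 (27.0) formed a run in which each overlapped with its neighbour. Cd80 at 1.32 and Pdcd1lg2 at 0.498 CPM per kilobase stayed far beneath the run.

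**Figure D2:**
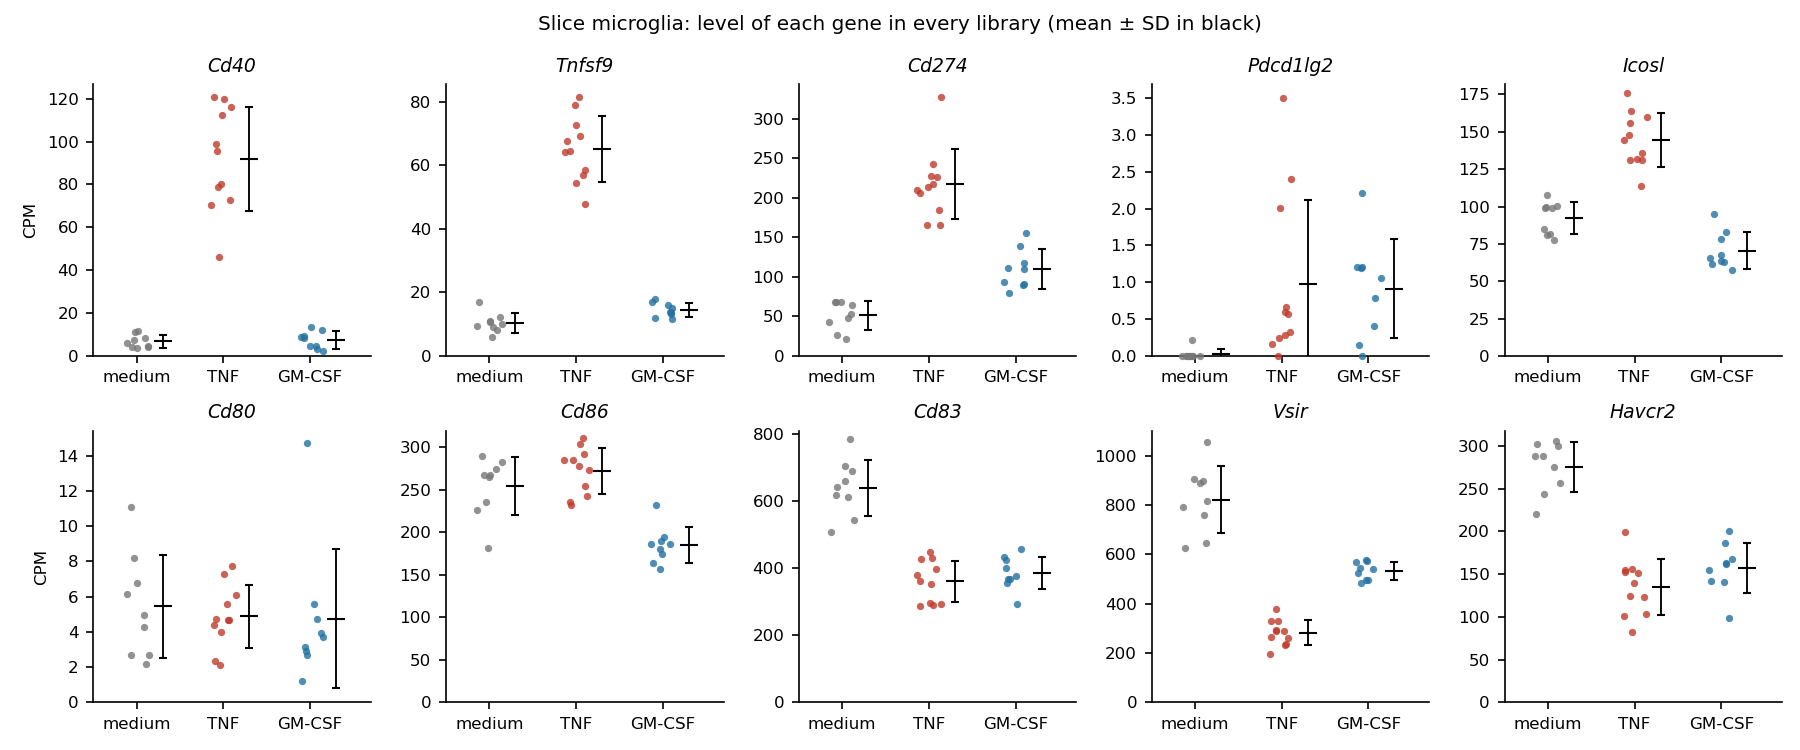
Level of each member in slice microglia with medium, TNF and GM-CSF, in CPM on linear axes that start at 0, with 1 point per library and, in black, the mean and a bar of 1 SD that ends at 0 where it would pass it. The TNF points of Cd40, Tnfsf9, Cd274 and Icosl sit above all medium points, and those of Vsir, Havcr2 and Cd83 below them.

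GM-CSF, a growth factor of myeloid cells, was compared with the same 9 medium libraries, so its changes and those of TNF share their controls. Of the 9 members tested, 1 rose (Cd274) and 3 fell (Cd83, Vsir and Havcr2), while 4.84% of all genes tested were called higher and 5.96% lower. The median log2 fold change was -0.39 over the members and -0.04 over all genes. Groups did not overlap in 4 of the 9 members and in 5.6% of all genes. Total-count scaling moved the median of all genes from -0.04 to 0.07, and with it 63.9% of all called genes were higher, against 44.8% with TMM.

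Cd274 ran from 79.6 through 110.0 to 156 CPM with GM-CSF, above the 68.6 CPM of the highest medium library. It rose 2.14-fold, by 1.10 on the log2 scale (SE 0.18, edgeR adjusted p = 9.90e-06). Cd83 ran from 293 through 376 to 456 CPM and fell by 0.73 (SE 0.09, edgeR adjusted p = 2.53e-07). Neither gene's groups overlapped. Havcr2 ran from 99.0 through 161 to 201 CPM and fell by 0.81 (SE 0.12, edgeR adjusted p = 4.04e-06). Vsir ran from 484 through 542 to 577 CPM, all under the lowest medium library, and fell by 0.62 (SE 0.10, edgeR adjusted p = 5.35e-06). At 1.54-fold, Vsir was close to the fold limit and was not called with total-count scaling, where its log2 value was -0.52.

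None of Cd86, Icosl, Tnfsf9, Cd40 and Cd80 was called with GM-CSF, and their differences from medium went both ways. Cd86 ran from 156 through 186 to 232 CPM, with a log2 difference from medium of -0.46 (SE 0.08, edgeR adjusted p = 3.29e-05), and Icosl from 57.7 through 65.2 to 94.9, with -0.39 (SE 0.09, edgeR adjusted p = 0.00169). Tnfsf9 ran from 11.6 through 13.9 to 17.9 CPM, with 0.47 (SE 0.14, edgeR adjusted p = 0.0122). These 3 passed the adjusted p and stayed under the fold limit, at 1.38-fold, 1.31-fold and 1.39-fold, and each group overlapped with medium. Cd40 ran from 2.29 through 8.23 to 13.7 CPM, around the medium range, with a log2 difference of 0.11 (SE 0.27, edgeR adjusted p = 0.820). Cd80 ran from 1.22 through 3.74 to 14.7 CPM, with -0.20 (SE 0.36, edgeR adjusted p = 0.745). The highest Cd80 value came from 1 library, replicate 9, and without it the log2 difference was -0.64 and Cd80 was still not called.

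The direct comparison of both cytokines asked where they part. Of the 9 members, 4 were higher with TNF than with GM-CSF and 1 was lower, while 8.25% of all genes tested were higher and 7.96% lower. Cd40 differed most, by 3.63 on the log2 scale (SE 0.27, edgeR adjusted p = 2.16e-13), followed by Tnfsf9 at 2.17 (SE 0.14, edgeR adjusted p = 3.31e-15), Icosl at 1.04 (SE 0.09, edgeR adjusted p = 1.37e-11) and Cd274 at 0.98 (SE 0.17, edgeR adjusted p = 1.27e-05). Vsir was lower with TNF by -0.92 on the log2 scale (SE 0.09, edgeR adjusted p = 3.28e-10). None of these 5 overlapped between the cytokines, as in 7.93% of all genes tested.

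The level of Cd86 was 1.47-fold higher with TNF than with GM-CSF (log2 0.56, SE 0.08, edgeR adjusted p = 3.76e-07), just under the fold limit. Without GM-CSF replicate 6, whose 232 CPM was the highest of its group, the log2 value was 0.60 and Cd86 was called. For Cd83 the log2 difference between the cytokines was -0.10 (edgeR adjusted p = 0.456), for Havcr2 -0.22 (adjusted p = 0.169) and for Cd80 0.04 (adjusted p = 0.943). The median over the members was 0.56 and over all genes -0.02. Scaling by total counts moved the median of all genes from -0.02 to -0.19 in this comparison and left 31.4% of called genes higher, against 50.9% with TMM, and the same 5 members were called.

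**Figure D3:**
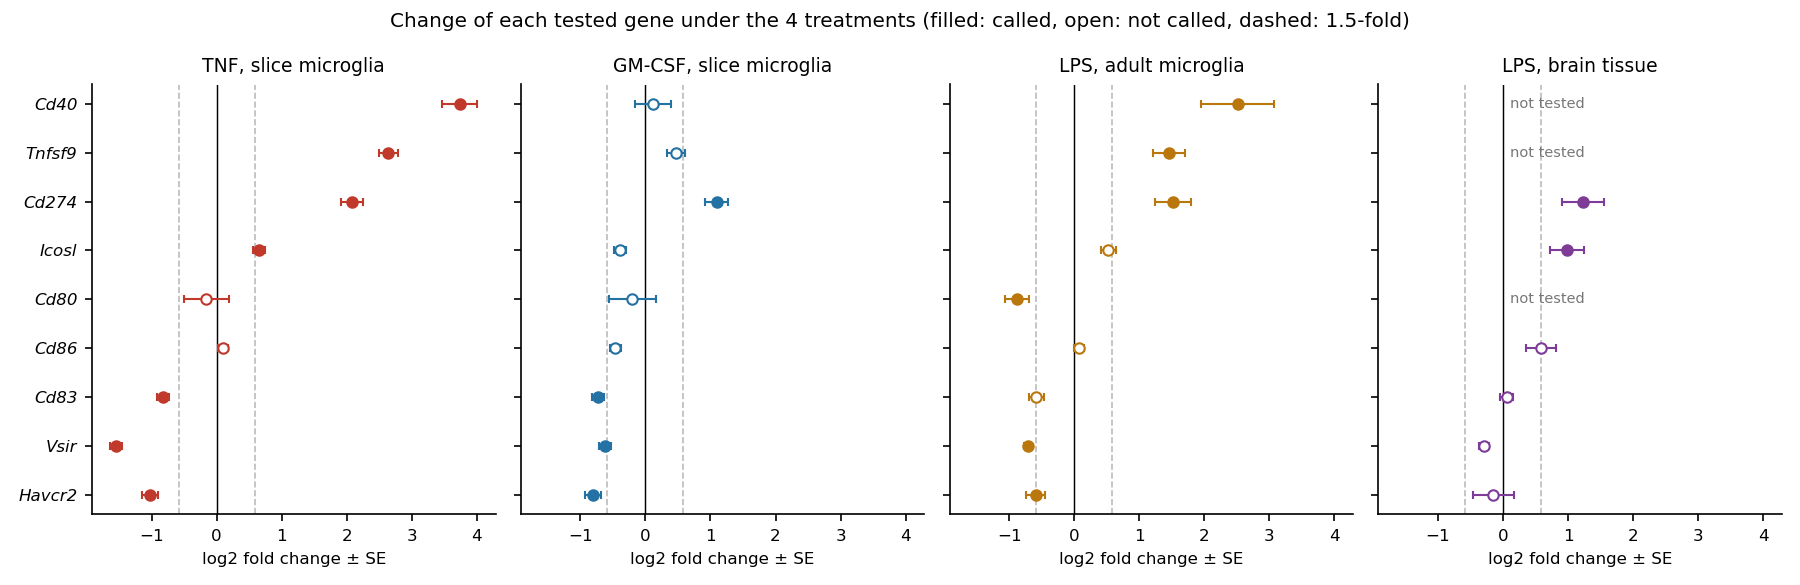
Log2 fold change of each member in the 4 treatments, with bars of 1 SE, and filled points where the adjusted p was under 0.05 and the fold over 1.5. Cd274 lies right of 0 in each treatment in which it was tested, and Vsir lies left of 0.

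The balance of Cd274 and Cd86 was also taken within each library, as the log2 ratio of their counts with 0.5 added to each. The pair was chosen with the changes of both genes known, so the ratios are given as a description, without p-values. With medium the ratio of Cd274 to Cd86 was -2.40 ± 0.61 (SD, n = 9) and ran from -3.75 to -1.73. With TNF it was -0.34 ± 0.38 (n = 11) and ran from -0.91 to 0.50, a difference of 2.06 that corresponds to 4.17-fold. With GM-CSF the ratio was -0.77 ± 0.34 and differed from medium by 1.63. Neither cytokine group overlapped with medium.

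In adult microglia the same ratio went from -5.50 ± 0.40 with PBS to -4.06 ± 0.37 with LPS, a difference of 1.44. In brain tissue the ratio was 0.44 ± 0.43 without treatment and 1.01 ± 0.76 with LPS, with overlap. The ratio of Cd86 to Cd80 differed by 0.17 between TNF and medium and by -0.14 between GM-CSF and medium. In adult microglia it went from 5.28 to 6.26 with LPS, a difference of 0.98.

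**Figure D4:**
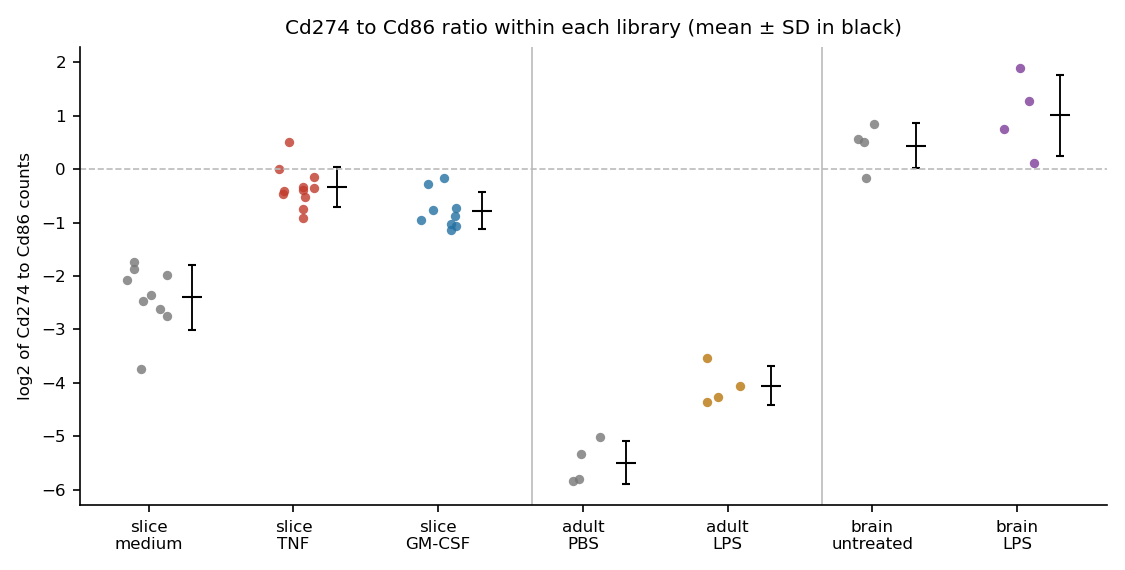
Log2 ratio of Cd274 to Cd86 counts within each library, with 1 point per library and, in black, the mean and a bar of 1 SD for each of the 7 groups. The TNF and GM-CSF points lie above all medium points, and the adult LPS points above all adult PBS points.

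LPS, the bacterial product that activates Toll-like receptor 4, was compared with PBS in adult microglia, sorted with the same gate. Of the 9 members tested, 3 rose (Cd40, Cd274 and Tnfsf9) and 3 fell (Vsir, Cd80 and Havcr2), against 14.4% of all 12987 genes tested higher and 13% lower. The median log2 fold change was 0.08 over the members and 0.01 over all genes. The groups did not overlap in 8 of these 9, all but Cd86, and in 47.5% of all genes tested.

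The Cd40 level was 1.65, 1.51, 0.483 and 0.577 CPM in the 4 PBS libraries and 10.9, 1.88, 4.91 and 6.62 CPM in the 4 LPS libraries. LPS replicate 2 came close to the PBS libraries and the other 3 stood well above them. The log2 fold change was 2.51 (SE 0.56, edgeR adjusted p = 0.0039), a 5.69-fold rise from a level near 1 CPM. PBS replicates 3 and 4 held 6 and 8 counts of Cd40, fewer than the filter's minimum. Cd40 thus passed the filter mainly through the LPS libraries, where it was higher, and the size of its rise is uncertain. Tnfsf9 had 2.94, 2.37, 2.66 and 2.52 CPM with PBS and 8.61, 4.28, 9.21 and 6.62 with LPS. All LPS libraries were higher, by 1.45 on the log2 scale (SE 0.25, edgeR adjusted p = 0.000439). Icosl had 151, 162, 139 and 138 CPM with PBS and 253, 165, 214 and 216 with LPS. Its difference of 0.52 (SE 0.11, edgeR adjusted p = 0.00258) was 1.43-fold and under the fold limit. Without LPS replicate 2, again the lowest of its group, it was 0.63 and called.

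Cd86 had 457, 468, 443 and 438 CPM with PBS and 512, 413, 492 and 487 with LPS. LPS replicate 2 was the lowest of all 8 and the other 3 were the highest, with a log2 difference of 0.08 (SE 0.07, edgeR adjusted p = 0.417). Cd80, the other B7 ligand, had 12.8, 10.5, 12.1 and 11.03 CPM with PBS and 4.96, 8.30, 4.76 and 7.29 with LPS. It fell by 0.88 on the log2 scale (SE 0.19, edgeR adjusted p = 0.00212), or 1.84-fold, which was the only comparison in which Cd80 was called.

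Cd274 had 11.3, 14.5, 7.89 and 7.57 CPM with PBS and 44.1, 21.5, 29.3 and 23.7 with LPS. It rose 2.87-fold (log2 1.52, SE 0.28, edgeR adjusted p = 0.00164). Vsir, by far the most abundant member per kilobase here, had 2472, 2375, 2399 and 2403 CPM with PBS and 1523, 1482, 1529.7 and 1375 with LPS. The libraries of each group lay close together and Vsir fell by 0.71 (SE 0.06, edgeR adjusted p = 3.91e-06), or 1.63-fold. Havcr2 had 113, 130.1, 116 and 116 CPM with PBS and 91.7, 66.0, 97.0 and 60.3 with LPS. It fell by 0.59 (SE 0.14, edgeR adjusted p = 0.00578), at 1.51-fold barely past the limit, and was under it without LPS replicate 2 (-0.51), LPS replicate 4 (-0.48) or PBS replicate 2 (-0.55). Cd83 had 271, 246, 221 and 233 CPM with PBS and 191, 157, 128 and 172 with LPS, with a log2 difference of -0.58 (SE 0.11, edgeR adjusted p = 0.00113). At a fold of 1.498 Cd83 was not called here, and it was called with DESeq2 (-0.59), limma-voom (-0.59), total-count scaling (-0.59) and other alternatives.

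Markers of border macrophages, which carry some of the same molecules, moved with LPS in the sorted adult cells. The summed level of the 6 markers ran from 10.1 to 15.6 CPM with PBS and from 27.3 to 44.5 with LPS, and the 3 that could be tested were all higher. Other markers were lower with LPS: those of endothelial cells ran from 40.7 to 49.6 CPM with PBS and from 15.0 to 17.4 with LPS (2 of 2 tested lower), those of monocytes from 11.1 to 15.4 and from 4.22 to 6.78 (2 of 3 lower), those of neutrophils from 599 to 701 and from 446 to 672 (2 of 3 lower) and those of oligodendrocytes from 75.7 to 88.8 and from 59.1 to 67.7 (1 of 3 lower). Their part in the changes of the members was not tested. The mean neutrophil sum was 654 CPM with PBS, 153 in slices with medium and 6.74 in untreated brain tissue. The summed microglial markers had the same order, at 53376, 20509 and 282 CPM. Whether the neutrophil sum came from neutrophils or from microglia was not tested, so its fall is not a measure of neutrophils.

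In whole brain tissue most members were close to the detection limit. Only 6 could be tested, and 2 of them rose with LPS, Cd274 and Icosl, against 2.63% of all 15083 genes tested. No member was called lower with edgeR, DESeq2 or limma-voom, against 0.55% of all genes with edgeR, and at an unadjusted p under 0.05 there was 1, Vsir. The median log2 fold change of the 6 was 0.32, against 0.0028 over all genes. The groups did not overlap in 2 of the 6, Cd86 and Vsir, and in 16.9% of all genes tested. Cd274 had 2.11, 2.53, 3.21 and 1.78 CPM without treatment and 2.85, 5.19, 9.19 and 5.50 with LPS. LPS replicate 1 lay inside the untreated range and the other 3 above it, and the rise was 1.22 on the log2 scale (SE 0.32, edgeR adjusted p = 0.0332). Icosl had 4.22, 4.76, 4.86 and 5.75 CPM without treatment and 5.70, 8.13, 15.0 and 10.2 with LPS. Again LPS replicate 1 overlapped and the other 3 did not, and the rise was 0.99 (SE 0.26, edgeR adjusted p = 0.0366). Both calls were lost with limma-voom and when LPS replicate 2 or 4 or untreated replicate 1, 2 or 4 was left out, and the log2 values stayed between 0.90 and 1.45 for Cd274 and between 0.71 and 1.18 for Icosl when any 1 library was left out.

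Cd86 had 1.41, 1.75, 1.76 and 1.99 CPM without treatment and 2.64, 3.07, 2.42 and 2.25 with LPS. All LPS libraries were above all untreated ones, but the test gave 0.58 (SE 0.23, edgeR adjusted p = 0.124) on 14 to 26 counts per library. Vsir had 25.9, 28.7, 28.9 and 29.5 CPM without treatment and 25.1, 21.2, 21.9 and 24.0 with LPS. Every LPS library was lower, and the log2 difference of -0.29 (SE 0.08, edgeR adjusted p = 0.0259) was 1.22-fold and under the fold limit. Cd83 had 20.1, 21.0, 16.04 and 17.2 CPM without treatment and 16.9, 19.3, 21.6 and 19.7 with LPS, with a log2 difference of 0.05 (SE 0.10, edgeR adjusted p = 0.811). Havcr2 had 1.61, 3.30, 3.00 and 2.61 CPM without treatment and 1.37, 1.53, 3.14 and 3.48 with LPS, with -0.15 (SE 0.32, edgeR adjusted p = 0.833). Both overlapped throughout.

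The other 4 members had too few counts in brain tissue to test. Tnfsf9 had 12 counts over the 4 untreated libraries and 27 over the 4 LPS libraries, from 0.201 to 0.517 CPM and from 0.589 to 0.967 CPM, without overlap. Cd40 ran from 0.292 to 0.731 CPM and from 0.354 to 1.16 CPM, and Cd80 from 0.201 to 0.680 and from 0.211 to 0.483 CPM, both with overlap. In the same libraries the summed markers of border macrophages ran from 5.43 to 7.86 CPM without treatment and from 9.31 to 13.2 with LPS, and those of neutrophils from 5.53 to 7.97 and from 10.9 to 15.4 CPM. The summed markers of endothelial cells ran from 141 to 163 CPM without treatment and from 152 to 221 with LPS (2 of 5 higher), those of astrocytes from 4021 to 4352 and from 4341 to 4660.0 (1 of 5 higher) and those of oligodendrocytes from 5714 to 6249.96 and from 4433 to 5189.5 (2 of 5 lower). Of the 7 microglial markers 1 was lower with LPS, P2ry12, a purinergic receptor. The part of these cells in the tissue values was not tested.

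**Figure D5:**
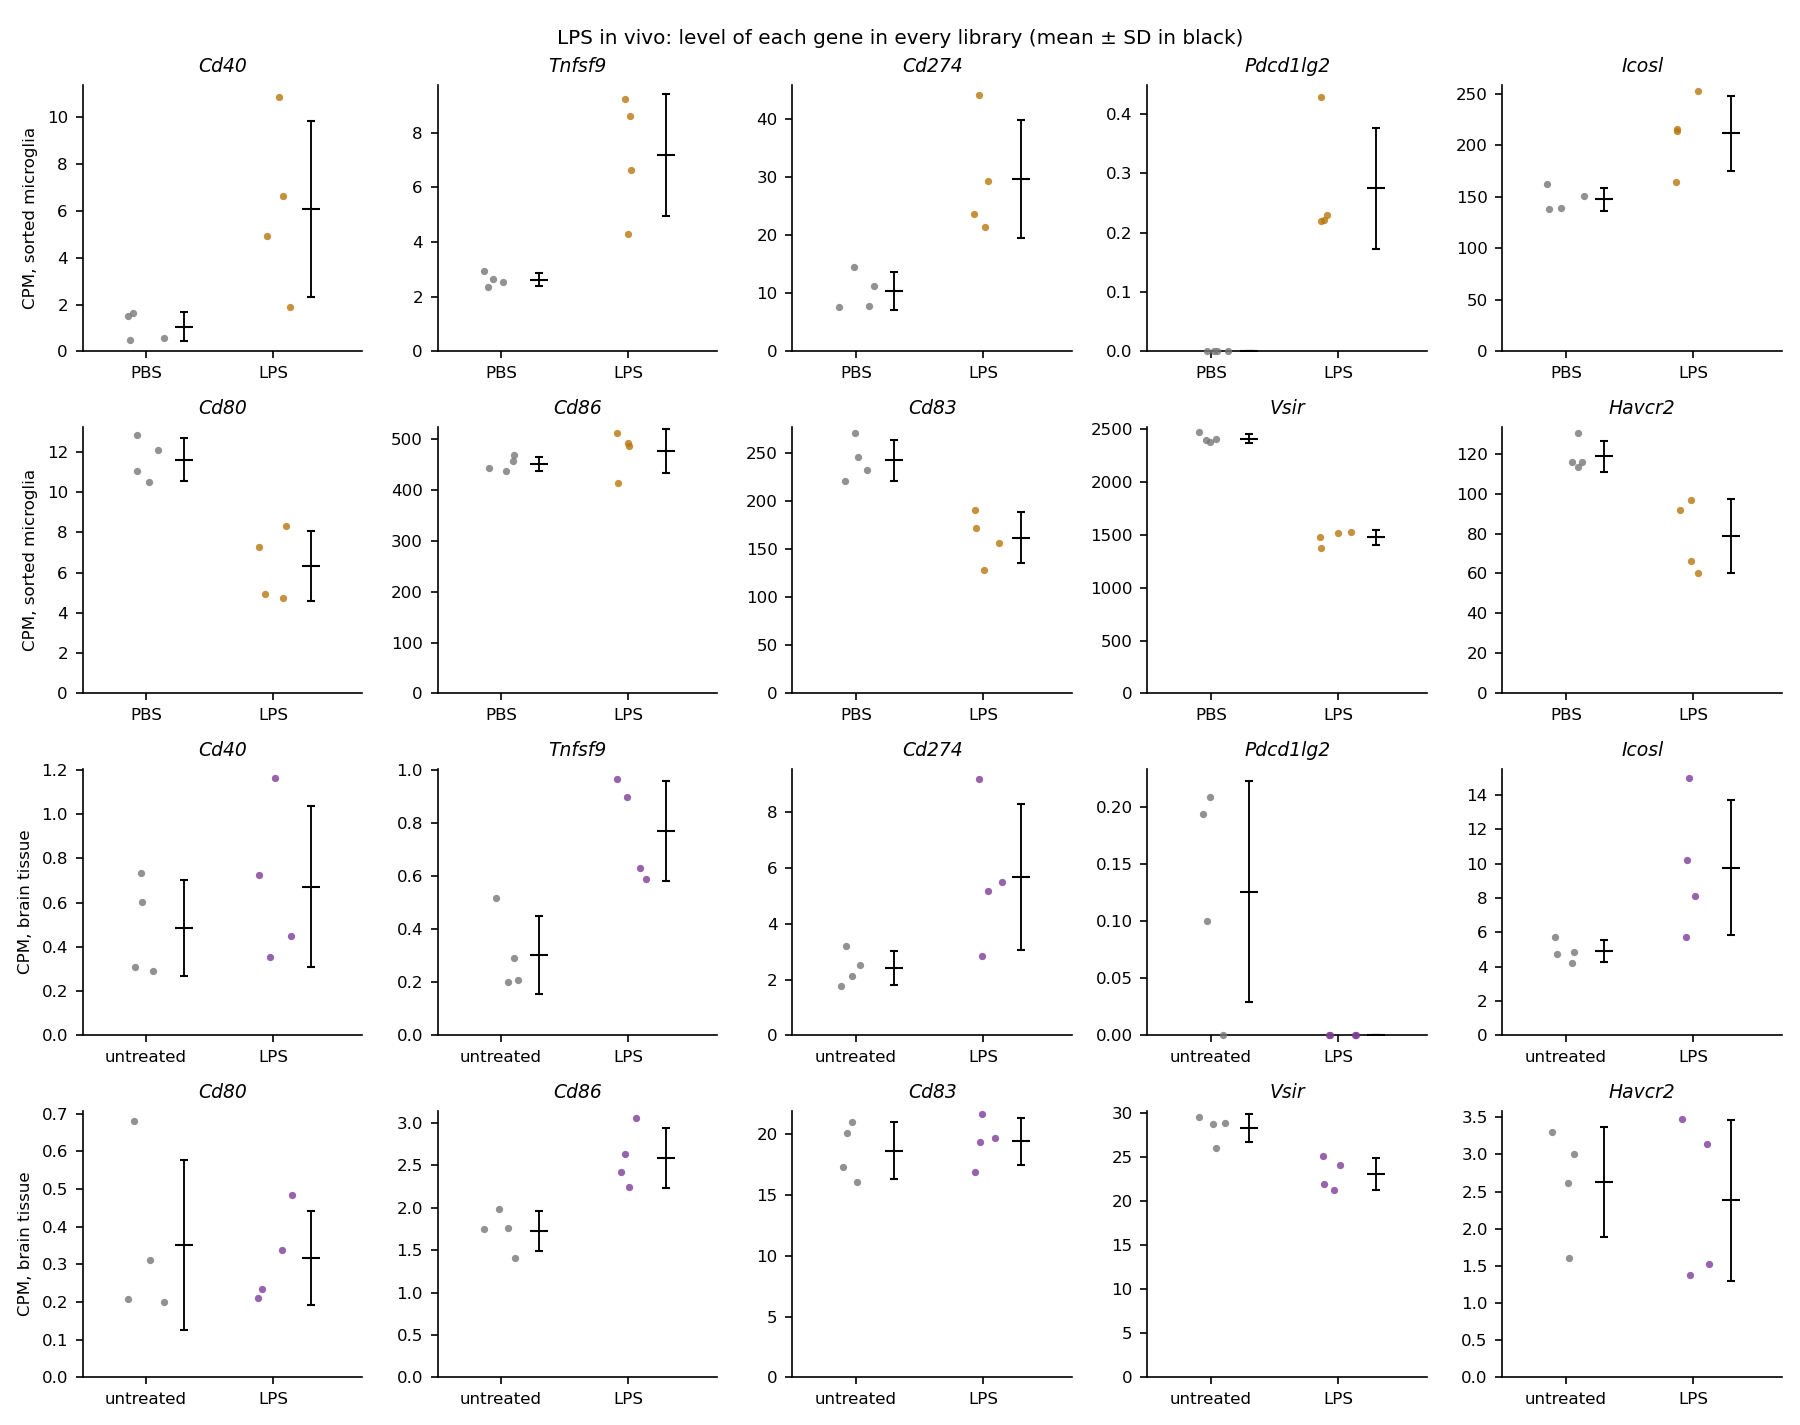
Level of each member in adult microglia (PBS and LPS) and in brain tissue (untreated and LPS), in CPM on linear axes that start at 0 with a separate scale for each panel, with 1 point per library and, in black, the mean and a bar of 1 SD. Vsir fell in the adult microglia from near 2412 to near 1477 CPM, and Cd274 was higher with LPS in both materials.

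Whether LPS acted unlike in sorted microglia and in tissue was tested as an interaction over the 16 libraries. The adjusted p was under 0.05 for 2 of the 9 members tested, Cd83 and Vsir, against 30.8% of all 16676 genes. Of the 9, Cd40, Cd80 and Tnfsf9 had too few counts for a test in brain tissue alone. These passed the filter of this fit mainly through the adult libraries, so their differences rest on a tissue side near the detection limit. The log2 effect in microglia minus that in tissue was -0.65 for Cd83 (SE 0.17, edgeR adjusted p = 0.00547) and -0.43 for Vsir (SE 0.10, edgeR adjusted p = 0.00269). For Cd86 it was -0.52 (SE 0.19, edgeR adjusted p = 0.0744), and for Cd40 2.01 (SE 0.89, edgeR adjusted p = 0.101). For Cd274 it was 0.29 (SE 0.49, edgeR adjusted p = 0.749). The material, the library kit and the control (PBS or no injection) changed together, so their parts cannot be told apart.

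Pdcd1lg2, the PD-L2 gene and neighbour of Cd274, was the rarest member in every sorted group. It had 2 counts over the 9 medium libraries, both in 1 of them, 74 over the 11 TNF libraries and 66 over the 9 GM-CSF libraries. The highest TNF library held 23 counts, and 1 TNF and 1 GM-CSF library held none. Scaled by depth, the ratio to medium was 32.6 with TNF (95% exact interval 8.71 to 274) and 32.1 with GM-CSF (8.53 to 270), and the ratio of TNF to GM-CSF was 1.02 (0.720 to 1.44). These intervals cover counting error only, not the spread between libraries. In adult microglia LPS gave 3, 5, 3 and 3 counts and PBS none, and the exact interval of the ratio starts at 3.45. In brain tissue 5 counts were found without treatment and 0 with LPS, and the exact interval of the ratio ran from 0 to 1.23, so no difference was detectable at this depth. The overlapping antisense gene limits what any of these counts can say about Pdcd1lg2.

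The receptors through which T cells read these ligands were listed as well, and their transcripts were mostly scarce. Of 6 receptor genes 3 were tested in the slices, and with TNF Tnfrsf9 rose, as given above, while Cd28 fell from a mean of 5.39 to 1.17 CPM (log2 -2.20, SE 0.72, edgeR adjusted p = 0.0133). The TNF level of Cd28 lay near the detection limit, so the size of this fall is uncertain. With GM-CSF none of the 3 was called by edgeR or DESeq2, 1 was lower at an unadjusted p under 0.05, and limma-voom called 1 lower. Between the cytokines Tnfrsf9 was higher with TNF by 2.06 (SE 0.21, edgeR adjusted p = 3.03e-09). In adult microglia 2 of the 6 were tested and Pdcd1, the gene of PD-1, rose from 6.57 to 10.4 CPM with LPS (log2 0.65, SE 0.25, edgeR adjusted p = 0.0491; called with DESeq2, not with limma-voom), and in brain tissue none of the 6 had enough counts.

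Other ligands of the B7 and TNF families were fewer. Of 9, 3 were tested in the slices, and with TNF edgeR, DESeq2 and limma-voom called none, with 1 higher and 1 lower at an unadjusted p under 0.05. With GM-CSF Tnfsf8, the CD30 ligand, rose from 0.590 to 4.72 CPM (log2 2.94, SE 0.76, edgeR adjusted p = 0.0034). At that medium level a library holds fewer counts than the filter's minimum of 10. Tnfsf8 thus passed the filter mainly through libraries where it was higher, and the size of its rise is uncertain. Cd276, the B7-H3 gene, fell with GM-CSF from 64.5 to 42.7 CPM (log2 -0.59, SE 0.20, edgeR adjusted p = 0.0254, called with limma-voom, not with DESeq2). Tnfsf8 was also lower with TNF than with GM-CSF, by -1.85 (edgeR adjusted p = 0.0326). In adult microglia 3 were tested and 1 fell with LPS, Cd276, from 62.8 to 29.3 CPM (log2 -1.10, SE 0.12, edgeR adjusted p = 2.22e-05), and in brain tissue the 1 tested was not called.

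Of 13 further adhesion and checkpoint genes of myeloid cells, 11 were tested in the slices and 4 rose and 3 fell with TNF. Icam1, whose product binds the T-cell integrin LFA-1, went from 175 to 688 CPM (log2 1.97, edgeR adjusted p = 4.78e-19), Cd47, the "do not eat me" signal, from 251 to 526 CPM (1.07, adjusted p = 5.52e-13) and Lgals9, a ligand of TIM-3, from 487 to 926 CPM (0.93, adjusted p = 8.29e-12). Sirpa, the receptor of CD47, fell from 1794 to 1158 CPM (-0.63, adjusted p = 4.82e-07). Lgals9 thus rose where Havcr2, the gene of its receptor, fell. With GM-CSF 1 of the 11 rose, Cd200r1 (log2 1.03), and 3 fell, among them Sirpa (-0.72), Nectin2 (-0.67) and Lag3 (-0.81). Between the cytokines 4 of the 11 were higher with TNF, Icam1 (2.15), Cd47 (1.49) and Lgals9 (1.23) first, and 2 lower, Cd200r1 (-0.77) first. In adult microglia 3 of 11 rose with LPS and 3 fell, with Sirpa (-0.93), Lag3 (-0.61), Cd200r1 (-0.80) and Nectin2 (0.77) having the smallest p. In brain tissue 3 of 8 rose, Lgals9 (1.45), Icam1 (2.45, not called with limma-voom) and Ceacam1 (0.69), and none fell with edgeR, DESeq2 or limma-voom or at an unadjusted p under 0.05.

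The pathway that CD40 engages, with its TRAF adaptors and the NF-kappaB genes, was tested for all 11 listed genes. With TNF 6 rose and 1 fell, and Birc3 went from 28.6 to 117 CPM (log2 2.02, edgeR adjusted p = 8.71e-19), Tnfaip3 from 69.2 to 227 (1.71, adjusted p = 1.19e-13), Nfkb2 from 43.6 to 156 (1.84, adjusted p = 1.69e-13) and Relb from 40.7 to 111 (1.44, adjusted p = 5.81e-12). These are also known targets of TNF itself. With GM-CSF none rose by any of the 3 tools, with 1 higher at an unadjusted p under 0.05, and 4 fell, Nfkb1 (log2 -0.82), Tnfaip3 (-0.75), Relb (-0.71) and Map3k14 (-1.18). Between the cytokines 6 were higher with TNF, Birc3 (2.11), Tnfaip3 (2.46), Relb (2.15) and Nfkb2 (2.24) first, and none was lower. In adult microglia LPS gave 4 higher, Nfkb2 (1.45), Traf1 (2.64) and Birc3 (0.62) first, and 1 lower, Nfkb1 (-0.94), and in brain tissue 1 of 11 was higher, Nfkb2 (1.13).

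Cmtm4 and Cmtm6, whose products stabilise PD-L1 at the surface, and March1, whose ubiquitin ligase removes CD86, made up a list of 3. March1 rose with TNF from 74.5 to 123 CPM (log2 0.72, SE 0.11, edgeR adjusted p = 1.66e-06) and was higher than with GM-CSF by 0.71 (edgeR adjusted p = 2.99e-06). GM-CSF against medium and LPS in brain tissue gave no call in this list by edgeR, DESeq2 or limma-voom, and no unadjusted p under 0.05. In adult microglia 1 of the 3 fell with LPS, Cmtm6, from 1908 to 1136 CPM (log2 -0.75, SE 0.09, edgeR adjusted p = 2.29e-05), while Cd274 itself rose. Of the 4 genes that flank Cd274 and Pdcd1lg2 on chromosome 19, none was called with TNF or GM-CSF by edgeR, DESeq2 or limma-voom, and 2 were higher in each at an unadjusted p under 0.05. Jak2 was higher with TNF than with GM-CSF by 0.64 (edgeR adjusted p = 0.00457, not called with limma-voom) and Plgrkt fell with LPS in adult microglia by 0.67 (edgeR adjusted p = 5.15e-05), with no call among the 3 tested in brain tissue.

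For the 6 members tested in all 3 tables, the genes with the most similar set of log2 fold changes over TNF, GM-CSF, LPS in microglia and LPS in tissue were found among 9700 genes, by Euclidean distance over these 4 values. Cd86 was nearest to Lyn (distance 0.139), Tifa (0.207) and Ggta1 (0.229). Cd274 was farther from its nearest genes than the other 5 members, which were Il1a (0.463), Ctsc (0.660) and Cebpb (0.71). Icosl was nearest to B2m (0.260), Pik3ap1 (0.284) and Acvrl1 (0.287). Vsir was nearest to Slc16a7 (0.230), Hpgds (0.264) and Padi2 (0.266), and Havcr2 to Pitpnc1 (0.120), Frmd4b (0.140) and Ttc30b (0.177). Cd83 had Krba1 (0.070), Sfi1 (0.106) and Cttnbp2nl (0.125) beside it. A small distance describes these 4 values only, and TNF and GM-CSF share their medium libraries.

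The slice libraries also carry title codes, 1A, 1B, 2A and 2B, whose meaning the labels do not give. Some members differed between the codes within a treatment: with medium, Cd40 averaged 4.73 CPM in the 4 libraries of 1A and 1B and 8.65 in the 5 of 2A and 2B, and Vsir 919 and 743 CPM. The changes were therefore also taken within each pair of codes. All 7 members called with TNF were called within 1A and 1B and within 2A and 2B, with Cd40 at 4.15 and 3.55, Tnfsf9 at 2.57 and 2.67, Cd274 at 1.95 and 2.17, Icosl at 0.60 and 0.66, Vsir at -1.52 and -1.64, Havcr2 at -1.16 and -0.89 and Cd83 at -0.74 and -0.97 on the log2 scale. With GM-CSF Cd274 was 0.94 and 1.27, Cd83 -0.71 and -0.73 and Havcr2 -0.92 and -0.70, all called in both. Vsir with GM-CSF was -0.77 in 1A and 1B and -0.47, under the fold limit, in 2A and 2B. Icosl with GM-CSF was -0.60 and called in 1A and 1B, and -0.20 in 2A and 2B.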

How the data were processed

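RNA was measured by RNA-seq in 29 libraries of slice microglia and 8 of adult microglia, made with a Smart-Seq v4 kit and Nextera XT, and in 8 of brain tissue, made with a TruSeq kit. The members and gene lists were chosen with earlier results of these data known. The authors deposited counts per gene for the slices, as whole numbers, and expected counts for adult microglia and brain tissue, of which 70872 and 69680 values were not whole and were rounded, changing the table totals by 0.00107% and 0.00113%. The submitters' processing notes name mm10, and for the slices STAR 2.7.0a, Subread 1.6.4 and featureCounts; the strand setting was not given in the sources used here. Identifiers were named with GENCODE M21, which matched 55450 of 55450, 47224 of 47643 and 42929 of 43411, and 92 rows of the brain table that named no gene held 0 counts. Libraries of a group differed by more than sampling noise, so none was counted as a duplicate.

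Each table was filtered (filterByExpr, minimum count 10), scaled by TMM and fitted with edgeR 4.0.16 (glmQLFit, glmQLFTest, robust) in R 4.3.3, with the 29 slice libraries in 1 fit. The scripts were tested on simulated data first. A gene was called at a Benjamini-Hochberg adjusted p under 0.05 and a fold over 1.5. All 10 members were reported, and of each list (receptors on T cells, other B7 and TNF-superfamily ligands, other checkpoint genes, CD40 signalling, PD-L1 stabilisers with MARCH1, neighbours of Cd274) up to 4 called genes with the smallest p per comparison, together with the 3 genes nearest to each member. Ratios within libraries used a pseudocount of 0.5 counts and are given without a test, since the pairs were chosen with results known. SciPy 1.17.1 gave the intervals. Counting intervals are exact, at 95%. Depth limits genes near 1 CPM, where a library holds about 10 counts. Alternatives were total-count scaling, DESeq2 1.42.0, limma 3.58.1 (voom), other filters, no fold limit, each group pair alone, the replicate block, the title codes and leaving out single libraries.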

Additional observations from a re-analysis of the deposited data

Results flagged for a closer look

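Of the 48 sets of values examined, 3 held 1 library far from the others of its group, where chance alone gives about 1 in 20. For Cd80, GM-CSF replicate 9 had 14.7 CPM and the other 8 libraries ran from 1.22 to 5.59. For Cd86, GM-CSF replicate 6 had 232 CPM and the others ran from 156 to 194. For Havcr2, PBS replicate 2 of the adult microglia had 130.1 CPM and the other 3 ran from 113 to 116. Without GM-CSF replicate 6 the log2 difference of Cd86 between GM-CSF and medium was -0.51, and without replicate 9 that of Cd80 between TNF and GM-CSF was 0.48, not called; both were computed after the data were seen.

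The LPS effect differed between adult microglia and brain tissue for Cd83, by -0.65 on the log2 scale, and for Vsir, by -0.43, in the interaction test. Material, library kit and control treatment cannot be told apart in this difference.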

How the results depend on the processing

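Of 729 member values under alternatives, 676 kept their direction and their side of the limits, 22 gained a call, 20 lost one and 11 changed sign. Without a fold limit the genes called were 4476 with TNF, 2892 with GM-CSF, 3486 between the cytokines, 6703 with LPS in adult microglia and 1533 in brain tissue, against 2353, 1222, 1833, 3563 and 479, and 7 members were called with GM-CSF. GM-CSF gave 785 genes in codes 2A and 2B, and the stricter filter 288 in brain tissue. In brain tissue 0 members were called with limma-voom, 1 without a filter, 1 with the stricter filter, and 0 to 2 when 1 library was left out (0 without LPS replicate 2 or 4 or untreated replicate 1, 2 or 4, and 1 without untreated replicate 3). The signs that changed all belonged to values without a call. Cd80 was 0.0003 with TNF in 1A and 1B, 0.077 with GM-CSF in 2A and 2B, and between the cytokines -0.13 with total counts and -0.32 in 2A and 2B. Cd40 was -0.011 with GM-CSF in 1A and 1B. In brain tissue Cd83 was -0.0022 without LPS replicate 3 and -0.0097 without untreated replicate 3, in a range up to 0.12, and Havcr2 0.049 and 0.0044 without LPS replicate 1 or 2, in a range from -0.40. The interaction of Tnfsf9, whose tissue counts were too few to test alone, was -0.0092 without adult LPS replicate 3 and -0.22 without untreated replicate 3, in a range up to 0.31. The cause of these shifts was not tested.

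With the replicate number as a block, 2423 genes were called with TNF, 1258 with GM-CSF, 1828 between the cytokines, 3452 in adult microglia and 448 in brain tissue, and 7, 4, 5, 7 and 2 members. Same-numbered libraries did not deviate together in every pair, so the numbers were not taken to pair the samples. In the slices the replicate numbers do not follow the titles: replicate 7 had code 2A with TNF and 2B with medium. The titles also carry running numbers after the codes. A pairing of slice libraries by these running numbers was not tested, so neither the block nor this check speaks to it. At these depths Cd40, Cd80, Tnfsf9 and Pdcd1lg2 in brain tissue, and Pdcd1lg2 throughout, had too few counts for a test.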
